A study of Mus musculus with 4 samples.

Results

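Cytosolic ribosomal protein genes encode the protein components of the ribosome that works in the cytoplasm. Their promoters were followed here by ATAC-seq, which reads out open chromatin through the sites that a transposase can cut and tag. The members were chosen by name and position: peaks annotated as lying at a promoter whose gene symbol was Rpl or Rps plus a number, with or without a paralogue ending, or Rplp0, Rplp1 or Rplp2. Of 86 such gene symbols, 68 had a promoter peak named for them in at least 1 library and 57 had one in all 4. Some of these peaks lay at a neighbour's start. The peaks merged into 75 regions of 255101 in the series, counting peaks as merged when they overlapped by at least 1 bp.

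The cytosolic ribosome is built from a large and a small subunit, each an RNA core carrying many proteins. The genes of these proteins are scattered over the chromosomes, are active in nearly every cell and have short, GC-rich promoters in which ETS-family, Sp1 and YY1 sites recur. Their mRNAs typically begin with a C followed by a run of pyrimidines, the terminal oligopyrimidine (TOP) start, through which growth signals acting on mTOR set their translation.

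The cells were LβT2 (LbT2b in the sample titles), an established mouse line with features of the pituitary gonadotrope, which secretes the gonadotropins. After a night without serum the cultures received vehicle or 1 nM activin A, a TGFβ-family ligand, for 6 h, and 2 libraries were made for each treatment. The source label of all 4 samples is the same line, and the labels do not say whether libraries of a treatment came from separate cultures, so the p-values measure the spread between these libraries, which may be technical. Of 9 gonadotrope markers, 5 had a promoter peak in all 4 libraries (Lhb, Cga, Gnrhr, Egr1 and Gata2) and Fshb had none in any library. Foxl2 and Pitx1 had one in 3 libraries and Nr5a1 in 1. None of 7 markers of other pituitary lineages, 3 of fibroblasts, 2 of endothelium or 2 of immune cells had one in all 4 libraries. Among these, the fibroblast marker Col1a1 had one in 3 libraries, Pomc in 2, and Gh, Tbx19, Pecam1 and Ptprc in 1 each.

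Between 172146474 and 224226184 autosomal reads per library were of high quality. The peaks were called in each library separately, and vehicle library 2 stood apart with 178358 peaks against 70692 to 85112 in the others. The enrichment of reads at start sites, a measure of signal over background, reached 2.72 and 2.48 after vehicle but 3.12 and 3.04 after activin. It thus differed between the treatments in the same direction as peak strength and width below, and its part in those results was not tested.

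The promoters with the most and the least accessible chromatin show the sequences from which the measurements came. Each line below gives 120 bases in RefSeq's GRCm38.p6, 5′ to 3′ on the gene's strand, from 100 bases before the listed start to 20 bases from it. Capitals mark CCGGAA or its reverse complement TTCCGG, a form of the ETS-family site. Other forms of that site were neither marked nor counted. Among promoters with a peak named for the gene and a single start in that table, the first 4 are the most accessible and the next 2 the least. The last 3 belong to genes discussed below because no peak covered the listed start or none carried the gene's name.
Rps16: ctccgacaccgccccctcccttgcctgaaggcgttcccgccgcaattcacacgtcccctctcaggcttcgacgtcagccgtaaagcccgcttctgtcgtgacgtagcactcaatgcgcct
Rpl13a: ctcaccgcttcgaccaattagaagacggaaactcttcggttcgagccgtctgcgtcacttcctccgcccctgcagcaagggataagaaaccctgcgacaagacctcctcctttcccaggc
Rpl37: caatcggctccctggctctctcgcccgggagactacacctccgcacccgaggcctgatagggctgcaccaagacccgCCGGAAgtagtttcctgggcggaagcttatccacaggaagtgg
Rpl27: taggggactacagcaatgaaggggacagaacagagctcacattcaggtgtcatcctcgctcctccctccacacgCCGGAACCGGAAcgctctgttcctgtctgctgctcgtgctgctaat
Rpl37a: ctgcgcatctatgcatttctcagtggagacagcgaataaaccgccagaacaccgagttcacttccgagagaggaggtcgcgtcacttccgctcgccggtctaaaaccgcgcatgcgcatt
Rps6: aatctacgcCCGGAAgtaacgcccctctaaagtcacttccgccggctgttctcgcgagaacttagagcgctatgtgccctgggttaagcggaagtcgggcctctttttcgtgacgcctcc
Rps25: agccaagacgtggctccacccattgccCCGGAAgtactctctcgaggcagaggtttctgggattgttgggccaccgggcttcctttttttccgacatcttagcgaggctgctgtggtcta
Rpl39l: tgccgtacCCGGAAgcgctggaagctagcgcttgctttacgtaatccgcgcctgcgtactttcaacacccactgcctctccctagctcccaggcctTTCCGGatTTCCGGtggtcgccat
Rpl15: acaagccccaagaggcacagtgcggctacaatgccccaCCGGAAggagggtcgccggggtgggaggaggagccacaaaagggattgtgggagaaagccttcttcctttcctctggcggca
The Rps16 stretch is at chr7:28350589-28350708, that of Rpl27 at chr11:101442145-101442264 and that of Rps25 at chr9:44407614-44407733, all on the forward strand. The Rps6 stretch, at chr4:86857348-86857467, is on the reverse strand. The CCGGAA letters are present at the strong Rpl27 promoter, at the weak Rps6 promoter and at Rps25, whose listed start no peak covered, and they are absent from these 120 bases at Rps16.

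Promoter windows reaching from 250 bases before to 50 bases after the listed start were held in RefSeq's table for 63 of the 86 genes. A gene was counted once if any of its windows held the letters on either strand. For genes under peaks, only windows under a peak in every library were counted. CCGGAA was found in 33 of the 63 genes (52.4%), in 31.8% of the 10018 genes whose windows lay under a peak in every library, and in 16.7% of all 27025 genes. The TOP start, C at the listed start base followed by 4 bases that are C or T, was found on the gene's strand in 14 of 63 genes (22.2%), against 2.74% of the genes under peaks and 3.01% of all genes. The 63 include genes with no such peak. Counted like the genes under peaks, 58 ribosomal protein genes had CCGGAA in 53.4% and the TOP start in 22.4%. The listed start need not be the base at which most transcripts begin.

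The Sp1 letters GGGCGG were in 60.3% of the ribosomal protein genes, below the 72.7% of genes under peaks and above the 38.2% of all genes. AAGATGGC, the letters of YY1, were in 6 of 63 genes (9.52%, against 5.27% under peaks and 3.19% of all genes). TATAAA, the TATA box, was in 8 (12.7%), above the 5.76% under peaks and below the 15.7% of all genes. Letters read by factors that respond to growth or to TGFβ-family signals were also counted. CACGTG, the E-box of Myc and Max, was in 6 genes (9.52%) and TGANTCA, the AP-1 site, in 2 (3.17%). TGTTTAC, the forkhead site, was in 1 (1.59%), and GTCTAGAC, the SMAD palindrome, in 0. Their shares were 11.6%, 4.00%, 2.31% and 0.270% of the genes under peaks, and 8.09%, 8.97%, 4.05% and 0.248% of all genes. Over the 58 ribosomal protein genes under peaks, the shares were 63.8% for Sp1, 8.62% for YY1 and 10.3% for the TATA box. They were 10.3% for the E-box, 3.45% for AP-1, 1.72% for the forkhead site and 0% for the SMAD palindrome. No test was made of these shares, and a match is not a bound site.

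**Figure D1:**
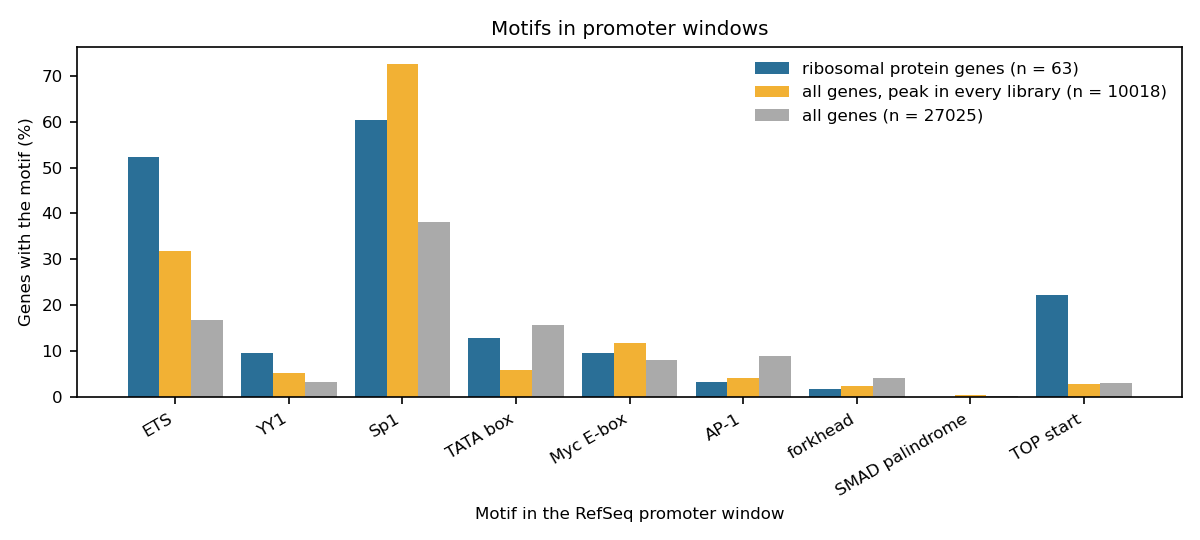
Share of genes (%, y axis) with each motif's letters in a RefSeq promoter window (x axis), for 63 ribosomal protein genes, 10018 genes with a peak over a window in every library, and all 27025 genes. The ETS letters CCGGAA stand at 52.4% of the ribosomal protein genes against 31.8% under peaks, and the TOP start at 22.2% against 2.74%. Over the 58 ribosomal protein genes under peaks, not drawn, the shares are 53.4% and 22.4%.

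The number of ribosomal protein genes with a promoter peak named for them was nearly the same in every library. Both vehicle libraries had 62 and the activin libraries 62 and 60, a mean of 62.0 ± 0 and of 61.0 ± 1.41 (SD, n = 2). The difference of -1 had an exact permutation p of 1 (2-sided), in a design in which no p can go below 0.33. When the −log10 q of a peak had to reach 5, the numbers were 46 and 42 with vehicle and 62 and 53 with activin. Here q is the peak caller's adjusted p-value. The difference was 13.5, with the smallest exact permutation p possible, 0.33. These counts take a peak by its name, wherever it lies. In the first count Rpl7 entered through the start of Rdh10 alone. With vehicle, Rps6 entered only through that of Acer2, and in vehicle library 2 Rpl13 only through that of Spg7. Own starts alone were not compared. Of 63 genes with a RefSeq start window, 58 and 59 had a peak over it with vehicle and 58 and 58 with activin.

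Of the 29 genes not named in every library, 11 had a promoter peak in 1 to 3 libraries and 18 in none. For 20 of the 29 the table gave a start window, and at 15 of these a peak of every library covered it. In libraries without a promoter peak named for the gene, the covering peak bore another gene's name or an intron or exon label. Over all 63 genes with a window, 58 had a peak over it in every library, against 10018 of all 27025 genes with a window.

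Many of these starts are shared with a neighbour, and the name of the peak moved between the 2 genes from library to library. The Rpl4 peak was named Rpl4 in activin library 2 and Zwilch in the other 3, with levels of 1.48, 1.34, 1.60 and 1.503. A level is the number of high-quality reads per kb of peak and per 1000000 such reads of the library, and 4 values in a row are in the order vehicle 1, vehicle 2, activin 1, activin 2. Rpl4 lines the tunnel through which the new protein leaves the ribosome. In the same way Rpl9 shared its peak name with Lias, Rps2, at the entry of the mRNA channel, with the RNA gene Snhg9, and Rps27 with Rab13. Rpl37a and the X-linked Rps4x had peaks at the start in all libraries that were labelled intronic in 1 and in 2 libraries. Rpl36 had a peak of its own name in its region in all 4 libraries, labelled as a promoter in 1 alone. Rpl6 was named in the vehicle libraries alone, by peaks with −log10 q of 1.34 or less, while the peak over its listed start was named Gm26205 in every library. The region of Rpl8 had a peak in 3 libraries, 1 of them named as its promoter.

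Among the 18 genes never named, 8 had a peak over the listed start in all 4 libraries. The largest was that of Rpl15, a large-subunit protein, named for Nkiras1 throughout. Its levels were 5.43, 5.36, 6.97 and 5.77, which would place it among the most accessible of these promoters. The Rps10 peak, named for Gm15420, measured 5.40, 3.44, 5.62 and 5.87. The Rpl7a peak, named for Med22, measured 3.36, 3.34, 4.50 and 3.65. The other 5 were Rpl18 (named Sphk2), the paralogue Rpl36al (named Mgat2), and Rpl38, Rps24 and Rps7, whose peaks were labelled as intron or exon of the gene itself. Rps7 was the weakest, with 1.37, 1.26, 1.43 and 1.40.

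No peak of any library covered the listed start of Rps25, a small-subunit protein used in initiation at internal ribosome entry sites, or those of the paralogues Rpl10l, Rpl39l and Rpl32l. Within 1 kb of the annotated start, Rps25 and Rpl10l had a peak in 1 library each. Rpl10l and Rpl39l are known for expression in the testis. Rpl3l, a paralogue of heart and skeletal muscle, had a peak in vehicle library 2 alone, with a −log10 q of 1.53. Of the remaining genes never named, Rpl3, which reaches to the catalytic centre, Rpl23a, at the tunnel exit, and Rps29 had no window in the table, nor did Rpl6l, Rps12l1 and Rps4l, which RefSeq lists as pseudogenes.

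**Figure D2:**
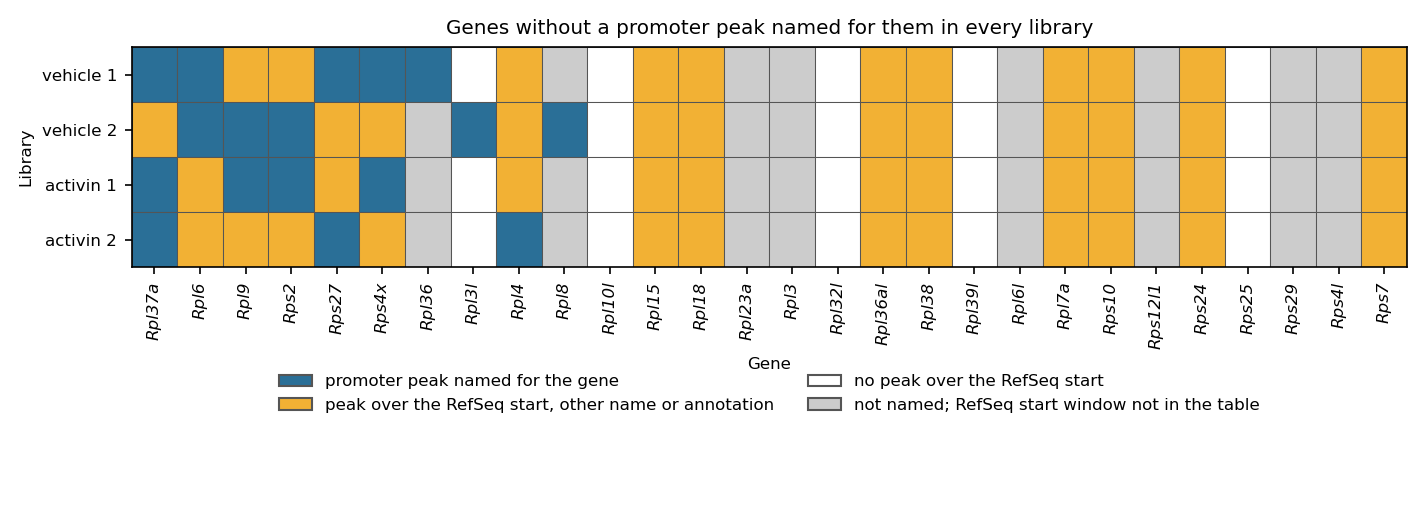
The plot shows 28 genes (x axis) without a promoter peak named for them in all 4 libraries (y axis), coloured by what lay at the start in each library. At 15 of them a peak lay over the RefSeq start in every library under some name, and Rps25, Rpl10l, Rpl32l and Rpl39l had none there.

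The naming also put peaks in the set that lie elsewhere. Of the 75 regions, 68 were at the gene's own start and 7 at the start of a neighbour, among them 1 each at Spg7 (named Rpl13), Lasp1 (Rpl23), Rdh10 (Rpl7), Mtif2 (Rps27a) and Acer2 (Rps6). Of the 68, a peak under any name was present in all 4 libraries at 64, of which 60 were autosomal and had read numbers.

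At these 60 starts the level ran from 1.30 to 9.02 as a mean of the 4 libraries, with a median of 2.90. The medians were 2.66, 2.54, 3.01 and 2.90 by library. The medians over all promoter peaks were 2.76, 2.15, 3.01 and 3.04 in the same order. By role, the median was 2.70 for 31 large-subunit genes, 2.97 for 23 small-subunit genes, 3.88 for the 3 stalk genes and 2.31 for 3 paralogues. As means of the 4 libraries, the stalk genes (3.81 to 4.62) lay above the 3 paralogues (2.09 to 3.68) and within the ranges of both subunits. By library they overlapped. The paralogue Rps27l was below Rplp1 in vehicle library 2 (2.88 against 3.57) and above it, at times barely, in the other libraries.

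The most accessible start was that of Rps19, a small-subunit protein needed for the maturation of the subunit's RNA, at chr7:24883871-24885031. Its levels were 8.97 and 7.31 with vehicle and 10.2 and 9.55 with activin, a mean of 8.14 ± 1.17 and of 9.89 ± 0.488 (SD, n = 2). Both activin libraries were above both vehicle libraries on this scale, which is set by all reads of a library and not by its peaks. Rps16 was the second, with 7.29 and 7.28 against 9.90 and 8.78. Rpl13a, which also takes part in a complex that silences inflammatory mRNAs, had 7.39 and 7.30 against 8.98 and 7.43. For Rpl37 the values were 7.07 and 5.14 against 7.61 and 7.38. For Rpl27 they were 6.84 and 3.66 against 7.01 and 6.31. The low value of Rpl27 in vehicle library 2 came with a wider peak there, 769 bp against 430 bp in vehicle library 1. The level is divided by the width called, and the part of the width was not tested. Among these 5, the ranges over the libraries overlapped between every neighbour in the order.

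The least accessible start with a peak in every library was that of Rps6, the small-subunit protein phosphorylated by the S6 kinases downstream of mTOR, with 1.23 and 1.38 against 1.46 and 1.15. The treatments overlapped there. Among the 60 starts, Rpl37a (1.70 and 1.14 against 1.60 and 1.47), Rpl4, Rps27 (1.78 and 1.03 against 1.55 and 1.70) and Rps9 (1.51 and 1.12 against 1.70 and 1.75) followed. All lay several times below Rps19 in every library. The mean level of Rps19 was 6.92-fold that of Rps6. Rps7, outside the 60 because its peaks were labelled intronic, was as weak, with 1.37 and 1.26 against 1.43 and 1.40.

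The Rplp0, Rplp1 and Rplp2 proteins form the stalk that draws the GTPases of translation to the ribosome. Rplp0 had 3.65 and 2.90 against 5.02 and 3.93, with both activin libraries above. Rplp1 had 3.69 and 3.57 against 3.81 and 4.15, likewise. Rplp2 had 4.80 and 4.24 against 5.15 and 4.29, and here the treatments overlapped. The partners Rpl5 and Rpl11, which travel to the ribosome as a particle with the smallest ribosomal RNA and also bind Mdm2, had 2.51 and 1.79 against 2.23 and 1.96, and 1.44 and 1.89 against 2.73 and 1.74. Rps14, a protein of the small subunit's platform, had 3.77 and 3.46 against 4.74 and 3.73. Rps27a, made as a fusion with ubiquitin, had 2.69 and 2.54 against 3.76 and 3.09 at its own start.

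Among paralogues, Rps27l, a target of p53, had 3.74 and 2.88 against 3.95 and 4.15. Rpl7l1 had 2.21 and 1.83 against 2.84 and 2.36, and Rpl22l1 had 2.00 and 1.67 against 2.22 and 2.46. In all 3 both activin libraries were above both vehicle libraries, as they were at 28 of the 47 regions tested below and at 62.4% of all 13871 regions tested. At no member were both below, against 3.56% of all regions.

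**Figure D3:**
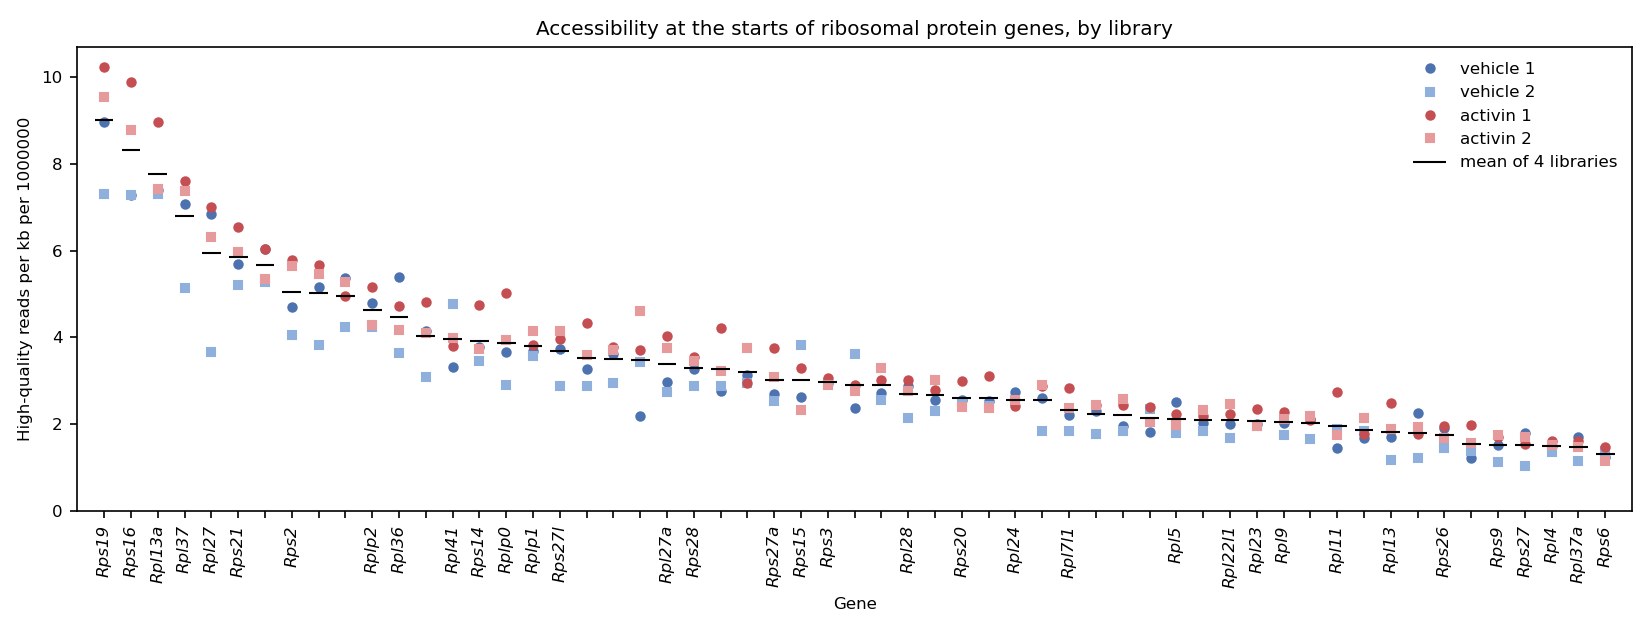
Level at 57 autosomal starts of ribosomal protein genes (y axis, high-quality reads per kb per 1000000; genes on the x axis in order of the mean, labelled where the text names them), with a point for each library and a bar for the mean of 4 libraries. The means run from 9.02 at Rps19 to 1.30 at Rps6.

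Levels were set beside the letters of the promoters, as a description with no test, over genes that share the same 4 libraries. Of 45 starts with a window and read numbers, the 23 with CCGGAA had a median level of 3.48 (1.30 to 9.02) and the 22 without it 2.22 (1.48 to 8.31). The 28 with GGGCGG had a median of 3.50 (1.79 to 9.02) and the 17 without it 2.04 (1.30 to 4.04). For AAGATGGC the order was the other way, with a median of 2.27 in 6 and 2.70 in the 39 without it. The ranges overlapped throughout: Rps16, the second in level, has no CCGGAA in its window, and Rps6, the lowest, has one. GC content, width and other forms of the ETS-family site were not accounted for.

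Peak strength, the authors' −log10 q, was larger with activin at most of these promoters. The medians at the 60 starts were 7.61 and 7.03 with vehicle but 14.7 and 10.3 with activin. At Rps19 the values were 42.5 and 28.2 against 60.6 and 50.5, and at Rpl37 41.3 and 35.3 against 60.9 and 49.3. At the weak Rpl4 start they were 3.13 and 3.28 against 3.95 and 2.39, and the treatments overlapped. Both activin libraries were above both vehicle libraries at 38 of 47 regions, against 71.7% of all regions tested, and both below at 0, against 2.34%. The direction was the same over the series as a whole, and −log10 q is not directly comparable between libraries of unlike depth and background.

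Of the ribosomal protein promoter peaks, 71.9% and 65.6% had a −log10 q of at least 5 with vehicle, and 95.5% and 87.1% with activin. Over all promoter peaks the shares were 62.2% and 47.1%, and 73.1% and 71.7%. The difference between the treatments ran the same way in both sets, and the shares were higher for the ribosomal protein genes in each library. The 4 X-linked members had no read numbers, because the quality report covers autosomes. Their −log10 q was 16.1 and 15.7 against 27.3 and 29.1 at Rpl10, a protein that joins the large subunit late, and 5.41 and 2.84 against 9.51 and 9.40 at Rps4x. At Rpl39, which lies in the exit tunnel, it was 4.15 and 4.71 against 8.19 and 4.72, and at Rpl36a, with overlap, 18.6 and 9.61 against 20.8 and 13.6.

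The peaks at these starts were mostly below 1 kb wide. The medians over the 60 starts were 685.5 and 708.5 bp with vehicle and 819.5 and 774.5 bp with activin. The widest were Rps21 (1147, 1029, 1309 and 1258 bp), Rpl4 (mean 1142 bp), Rpl9 (mean 1108 bp), Rps19 (mean 1062 bp) and Rpl10 (mean 1056 bp). Rpl4 was thus among the widest and the least dense at once. The narrowest was Rpl41, the gene of the smallest ribosomal protein, with 310, 132, 421 and 315 bp. Rpl28 (288, 369, 536 and 340 bp), Rps15 (400, 179, 421 and 596 bp), Rps28 (422, 442, 560 and 490 bp) and Rps4x (430, 576, 569 and 492 bp) followed.

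**Figure D4:**
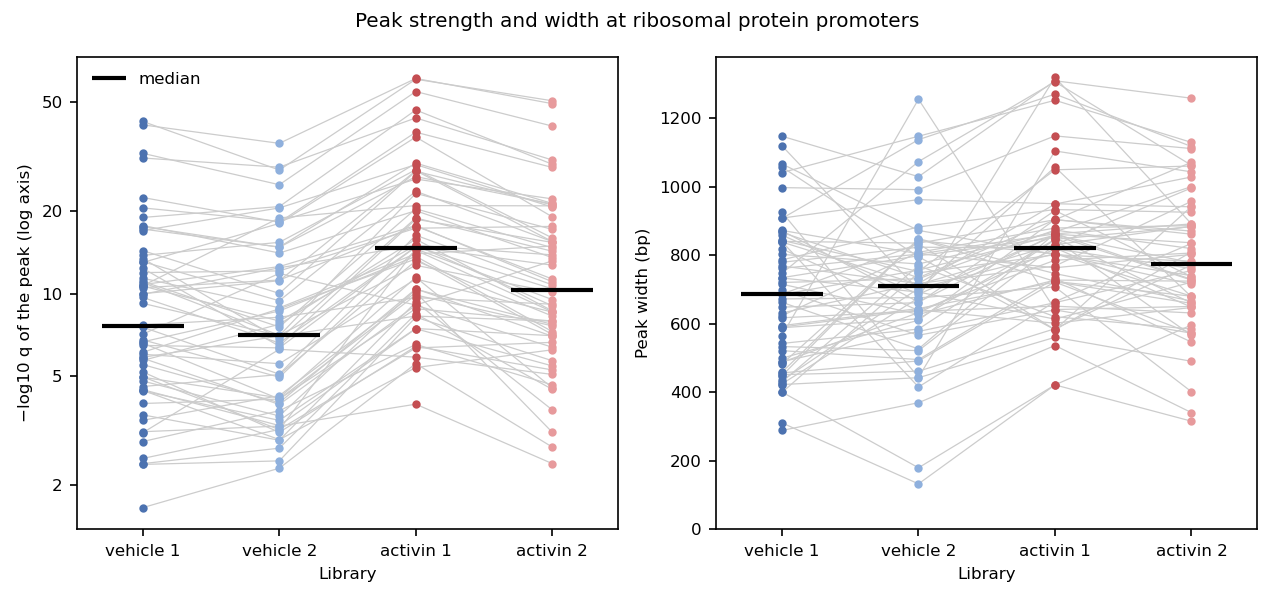
Authors' −log10 q (left, log axis) and peak width in bp (right) at 60 autosomal starts of ribosomal protein genes, with a point for each start in each library, grey lines joining a start across libraries and black bars at the medians. The median −log10 q is 7.61 and 7.03 with vehicle and 14.7 and 10.3 with activin, and the median width is 685.5 and 708.5 bp against 819.5 and 774.5 bp.

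The question of whether activin changed accessibility at these promoters was put to 47 members, those whose region was autosomal, held exactly 1 peak of every library and had at least 50% of its length in common. They were 45 at own starts plus the Rpl7 region at Rdh10 and the Rps6 region at Acer2. The level was expressed as the log2 of reads plus 1 per kb, set relative to the median region of each library, and tested with limma together with the 13871 regions of the series that met the same conditions. After Benjamini-Hochberg adjustment, 0 of the 47 passed 0.05, and 0 of 13871 (0%) did in the series. The smallest adjusted p by limma was 0.431 among the members and 0.184 over all regions.

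At an unadjusted limma p under 0.05, 0 members were higher and 2 lower with activin, against 3.62% and 5.91% of all regions. On this log2 scale 22 members had a positive and 25 a negative difference, with a median of -0.015. The median was 0.028 over 6612 promoters and -0.0049 over all regions. Both activin libraries were above both vehicle libraries in 6 members and below in 8, against 20.9% and 20.5% of all regions.

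The most negative difference was at Rpl24, a large-subunit protein that bridges to the small subunit, at chr16:55965942-55966825. Its levels were 2.75 and 2.53 with vehicle and 2.40 and 2.54 with activin, which overlap. Relative to the median region the log2 difference was -0.37 ± 0.12 (SE, limma adjusted p = 0.431). Its peak measured 533 and 521 bp with vehicle and 830 and 884 bp with activin. The part of that width in the density difference was not tested.

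Rps3, which forms part of the mRNA entry and also acts in DNA repair, had the other unadjusted p under 0.05. Its levels of 2.94 and 2.95 against 3.06 and 2.91 were alike between treatments, and its log2 difference was -0.26 ± 0.11 (limma adjusted p = 0.524). Its width was 456 and 491 bp against 722 and 659 bp. The differences at Rpl5 (-0.29), Rplp2 (-0.21) and Rps20 (-0.19) had limma adjusted p-values of 0.566, 0.535 and 0.656.

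Of the larger positive differences, Rpl27a had levels of 2.98 and 2.73 against 4.03 and 3.75, with no overlap, and a log2 difference of 0.17 ± 0.10 relative to the median region (SE, limma adjusted p = 0.604). Rplp0 likewise had 0.17 ± 0.12 (SE, limma adjusted p = 0.657). The Rpl7 region at the Rdh10 start had 0.20 ± 0.10 (limma adjusted p = 0.553), which concerns the start of Rdh10 and not that of Rpl7. None of these passed the test, although the levels of Rpl27a and Rplp0 did not overlap between treatments. The median region of the series differed by 0.27 in the same direction when levels were set by all reads, and at that scale the members' median was 0.26.

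**Figure D5:**
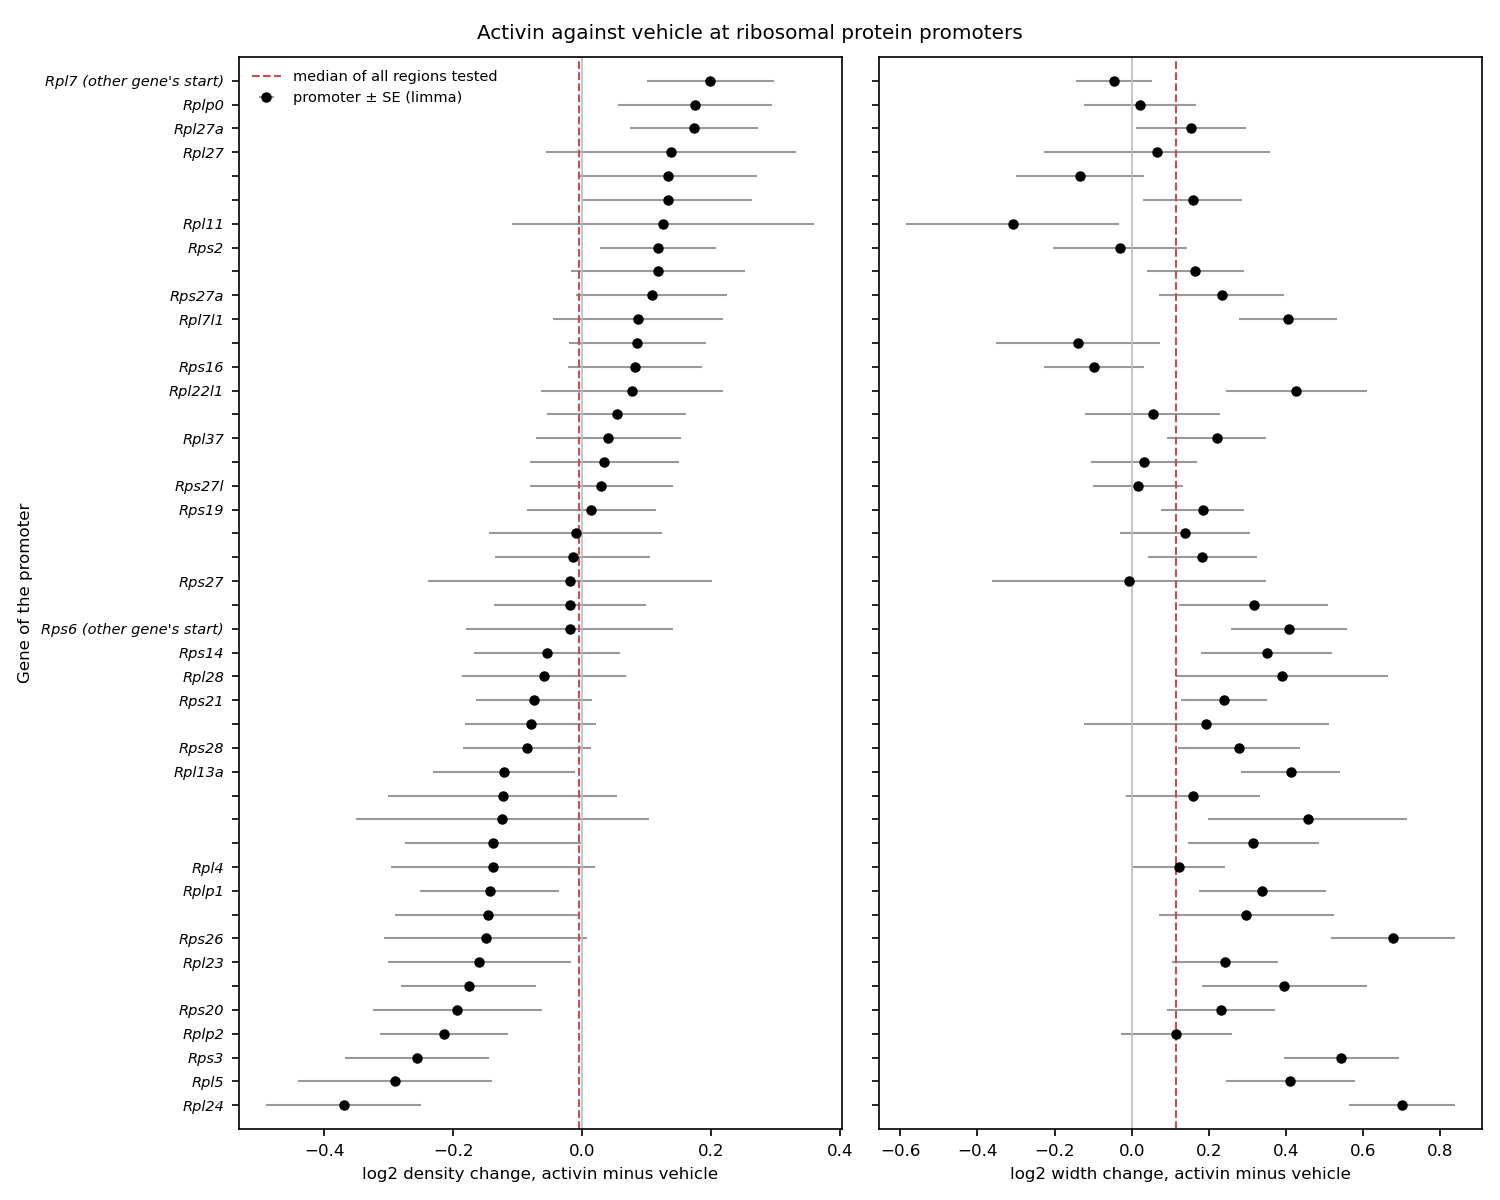
Difference between activin and vehicle for 44 promoter regions (y axis, ordered by density; genes named in the text are labelled), in log2 density relative to the median region (left x axis) and in log2 peak width (right x axis), with SE from limma as bars and the median of all 13871 regions as a dashed line. Densities lie between -0.37 at Rpl24 and 0.20 at the Rpl7 region at the Rdh10 start, and 37 of 44 widths are above 0. Over all 13871 regions, 10162 width differences are above 0.

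Width was tested in the same regions on the log2 scale. By limma, 0 of 47 members and 0 of 13871 regions (0%) passed an adjusted p of 0.05, with smallest values of 0.435 and 0.220. The mean log2 width was larger with activin at 38 of 47 members, against 5197 of 6612 promoters and 10162 of all 13871 regions. The median log2 difference was 0.18, against 0.12 over promoters and 0.11 over all regions. At an unadjusted limma p under 0.05, 6 members were wider and 0 narrower, against 9.25% and 1.38% of all regions. Both activin libraries were wider than both vehicle libraries at 24 members and narrower at 2, against 38.1% and 7.03%.

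The largest width differences were those of Rpl24, at 0.70 ± 0.14 on the log2 scale, Rps26, at 0.68 ± 0.16, and Rps3, at 0.54 ± 0.15 (SE), each with a limma adjusted p of 0.435. Rps26, a protein at the mRNA exit, measured 499 and 610 bp against 904 and 861 bp. Rpl13a, Rpl7l1 and the Rps6 region at Acer2 made up the rest of the 6. Rpl24 and Rps3 were thus the lowest in unadjusted p for density and among the widest differences at once, 2 measures that share the width.

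The other genes of ribosome production and translation that could be measured gave the same count. A further 44 symbols were listed, among them older and newer names of the same gene. Of these, 28 had a promoter peak in some library and 20 in all 4, and 23 regions were in the density test. None passed the adjusted limma p of 0.05. At an unadjusted limma p under 0.05, 1 of the 23 regions was higher and 1 lower, against 3.62% and 5.91% of all regions. The higher was 1 of 2 regions of Myc, which drives ribosome production (0.24 ± 0.11, limma adjusted p = 0.524), and the other Myc region had -0.13. The lower was Nob1, the nuclease that finishes the small subunit's RNA (-0.40 ± 0.12, limma adjusted p = 0.412). Their median was -0.071. It was -0.075 over 4 ribosomal proteins outside the symbol pattern (-0.21 to 0.22), -0.24 over 2 regions of ribosome assembly genes, and -0.11 over 11 regions of translation factors, from Eef1a1 (-0.34 at 1 of its 2 regions) to Eef1b2 (0.34). RNA polymerase I genes and regulators had 0.035 over 6 regions.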

How the data were processed

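Per the submitters' processing notes, reads were handled with Bowtie2, MACS2 and HOMER on GRCm38 (mm10); versions, settings and filters are not given in the sources used here. Per the file headers, the deposited peak lists give each broad peak of a library a score, a fold enrichment (ratio) and the −log10 of p and q, and the deposited annotation carries the same score; the lowest −log10 q was 1. Per the file headers, ataqv 1.3.1 counted the high-quality autosomal reads in each peak of the library's own list; these stand in a report over unlike intervals, so log densities and no count model were used.

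Groups and replicate numbers came from the sample titles. Reads plus 1 per kb were taken to log2, centred on the library median and fitted with limma 3.58.1 in R 4.3.3 (trend, no block); log2 differences understate those of weak regions. Widths were fitted likewise, without centring. Both steps were run on simulated data, for widths with an assumed spread, and no result here rests on that run. The numbers of genes were compared by exact permutation. Named genes were the 5 largest differences each way, the 5 highest and lowest levels, the 5 widest and narrowest peaks, genes named in under 4 libraries, the X-linked ones and a set of stalk, paralogue and other genes; 3 genes are counted but not reported here by name or in the plots of single genes. Members, lists and rules were chosen with earlier results of these data known. Motifs and sequences are RefSeq's, GRCm38.p6, matched by symbol (63 of 86). Same-numbered libraries were not shown to be paired. Alternatives are below; counting error only is covered by the read numbers.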

Additional observations from a re-analysis of the deposited data

How the results depend on the processing

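No ribosomal protein region passed the adjusted limma test under any alternative for density or width. Over all regions the number called by density went from 0 to 1 with a pseudocount of 10, to 605 (553 higher, 52 lower) with levels set by all high-quality reads, to 39 (5 higher, 34 lower) without division by length, to 4, all lower, with a replicate block, and to between 0 and 9 when 1 library was left out; the 9 came without activin library 2. Same-numbered libraries showed little shared deviation (correlation -0.025 between vehicle 1 and activin 1 over 13871 regions). That value cannot settle whether they were paired, and the block changed no call of a member.

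Levels set by all high-quality reads gave a members' median of 0.26, 1 call among the other ribosome and translation genes, and positive differences at Rps3 (0.018), Rplp2 (0.059) and Rps20 (0.080). Without division by length Rpl24 was at 0.18 and Rps3 at 0.14. The median width difference was 0.12 with at least 80% in common, 0.23 over all merged regions with a peak in each library, 0.14 to 0.23 with 1 library left out, and 0.058 when each library was centred on its median width. That centring, the one on promoters, the gene identifiers, the RefSeq starts and the left-out libraries for peak strength were chosen after seeing the data. The difference in genes with a promoter peak was 13.5 at a −log10 q of at least 5 and 0.5 for peaks within 1 kb of the start, and -2 to 0 with 1 library left out. The difference in median −log10 q was 3.13 to 7.21 with 1 library left out. The causes were not tested. With 1 library left in a treatment, it is assumed to vary like the others, and 2 libraries a treatment limit what any test here can call.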
